A study of Mus musculus with 4 samples.

Results

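The 8 integrin genes Itga4, Itgb1, Itgb7, Itgal, Itgb2, Itgav, Itgb8 and Itgb3 held 20 of the 27050 Trim33 peaks mapped in mouse T helper 17 (Th17) cells. A peak was counted when its summit lay in the RefSeq body of a gene or within 10 kb of it, here called the locus (mm10). All 8 loci held at least 1 summit, as did 53.9% of the loci of all 21887 protein-coding genes. Among genes with loci in the length range of the members the share was 64.8%. The data came from chromatin immunoprecipitation and sequencing (ChIP-seq) of Trim33, with 2 ChIP libraries and 2 input DNA libraries. Naive CD4+ T cells from spleen and lymph nodes of C57BL/6 mice had been turned into Th17 cells in culture, on plates coated with antibodies to CD3 and CD28 and with IL-6, TGF-b and antibodies that block IL-4 and IFN-g. ChIP and input libraries have the same labels for strain, tissue, culture and treatment, and the input had no antibody. The authors merged the ChIP replicates before deposit, so each peak has 1 value. There is no value per library, no spread between cultures, no known depth and no untreated group, and no test between conditions was possible. The labels give neither the number nor the age of the mice. Occupancy gives no expression level, so the cell type was not checked against expressed markers.

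Integrins are cell surface receptors made of 1 alpha and 1 beta subunit that hold cells to other cells and to matrix. On lymphocytes, Itga4 (alpha4) pairs with Itgb1 (beta1) to bind VCAM-1 and with Itgb7 (beta7) to bind MAdCAM-1 on gut vessels, and Itgal (alphaL) pairs with Itgb2 (beta2) as LFA-1, which binds ICAM proteins. Itgav (alphaV) pairs with Itgb8 (beta8) to release active TGF-beta from its latent complex, and with Itgb3 (beta3) as a receptor for vitronectin. Trim33 is a chromatin-bound ubiquitin ligase that binds receptor-activated SMAD proteins, the carriers of TGF-beta signals.

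Of the 5 members with a tabled start site, 3 had a Trim33 peak over bases just before it. The reference sequence there is shown because it is the DNA under the peaks. RefSeq start sites were tabled for 5 of the 8 members (Itga4, Itgb1, Itgb7, Itgav and Itgb8), so Itgal, Itgb2 and Itgb3 could not be assessed. Each line gives the 250 bases before the start site, 5′ to 3′ on the strand of the gene (RefSeq, GRCm38.p6). Capitals mark the bases inside the deposited peak.
Itga4, chr2:79255176-79255425, plus strand: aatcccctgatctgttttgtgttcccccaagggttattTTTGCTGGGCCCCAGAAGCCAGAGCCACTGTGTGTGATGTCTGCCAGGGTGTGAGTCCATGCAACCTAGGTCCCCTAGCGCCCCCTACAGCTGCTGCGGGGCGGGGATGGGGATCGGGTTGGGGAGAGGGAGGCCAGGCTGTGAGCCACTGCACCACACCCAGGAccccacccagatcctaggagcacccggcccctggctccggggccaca
Itgb1, chr8:128685404-128685653, plus strand: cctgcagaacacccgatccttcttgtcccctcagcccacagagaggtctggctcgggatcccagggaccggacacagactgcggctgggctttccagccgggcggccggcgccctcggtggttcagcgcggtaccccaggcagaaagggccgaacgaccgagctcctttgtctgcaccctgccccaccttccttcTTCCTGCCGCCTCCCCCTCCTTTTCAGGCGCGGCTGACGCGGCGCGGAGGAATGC
Itgav, chr2:83724147-83724396, plus strand: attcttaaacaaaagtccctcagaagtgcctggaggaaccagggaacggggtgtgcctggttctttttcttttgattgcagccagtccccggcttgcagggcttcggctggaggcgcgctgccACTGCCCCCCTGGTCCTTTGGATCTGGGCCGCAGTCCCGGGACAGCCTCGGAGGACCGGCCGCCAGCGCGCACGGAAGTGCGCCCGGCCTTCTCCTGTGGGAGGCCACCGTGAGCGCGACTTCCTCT
The Itga4 peak lay wholly inside its window, with 165 of the 250 bases. The Itgb1 peak reached back over 55 bases and the Itgav peak over 127, and both continued past the start site into the gene.

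The 3 windows held G and C at or above the upper quartile of such windows. The G and C share was 64.0% for Itga4, 68.0% for Itgb1 and 64.4% for Itgav, against a median of 55.6% (quartiles 47.2% and 64.0%) over 21263 such windows of protein-coding genes. They differed in CpG pairs, with 6 in Itga4, 21 in Itgb1 and 18 in Itgav, where the median window held 10 (quartiles 3 and 19). The windows of Itgb7 and Itgb8, which no peak entered, had 56.0% and 62.4% G and C with 5 and 12 CpG pairs.

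Letters of 8 motifs were searched on both strands of the 5 windows. The short SMAD box CAGAC was found in the windows of Itga4, Itgb1, Itgb7 and Itgb8, 4 of 5, and 40.9% of all protein-coding windows hold it. In Itga4 it lay on the other strand at bases 174 to 170 before the start site, inside the peak. Itgb1 held 3 matches, from base 205 to base 77 before the start site, and none of them lay in the bases of the peak. The RUNX core TGTGGT was found in the Itga4 window alone, on the other strand at bases 60 to 55 and inside the peak, and 12.4% of all windows hold it. No match was found for the AP-1 site TGANTCA (6.13% of all windows), the STAT site TTCNNNGAA (6.58%), the ETS core CCGGAA (15.0%), the nuclear receptor half-site AGGTCA (12.8%), the NF-kB site (1.43%) or the palindromic SMAD element GTCTAGAC (0.183%). None of these matches overlapped another, and a match is only a run of letters.

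**Figure D1:**
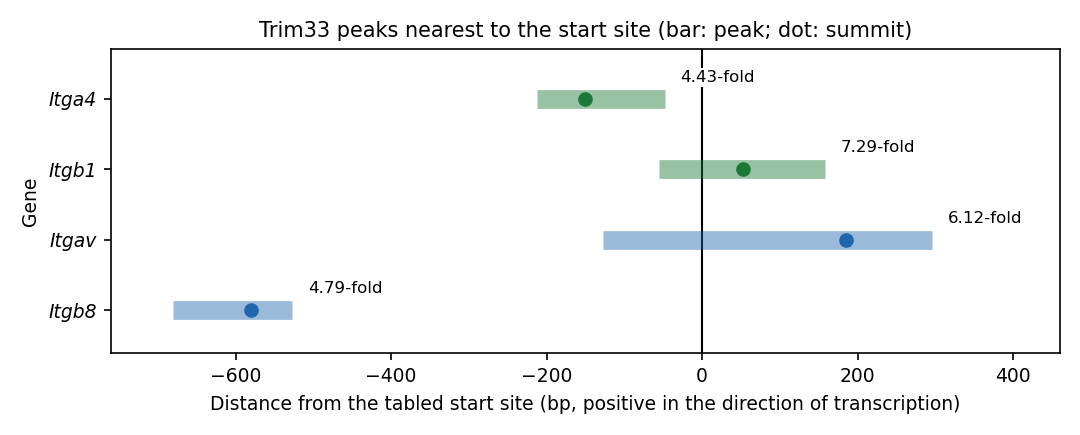
Peaks nearest to the RefSeq start site of Itga4, Itgb1, Itgav and Itgb8, with the distance from the start site in bp on the horizontal axis (positive in the direction of transcription), bars for peaks and dots for summits. The Itga4 and Itgb8 summits lie 151 and 580 bp before the start site, the Itgb1 and Itgav summits 52 and 185 bp after it.

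Across the members, 8 of 8 had a summit in the locus, and over all 21887 protein-coding genes this share was 53.9%. The member loci were longer than most, 37.4 to 104.6 kb against a median of 37.2 kb. Among the 7896 genes with loci in that range, 64.8% had a summit. At gene ends, meaning no more than 1000 bp from the first or last base of the gene, 6 of 8 members had a summit, against 33.4% of all genes and 41.8% of those with loci of like length. A summit inside the body was found for 6 of 8 against 33.0% of all genes, a share not matched for gene length. Of the 5 members with a tabled start site, 4 had a summit within 1000 bp of it against 34.8% of genes. These are counts for a list that was chosen with results of these data known, and they carry no test.

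Peak heights in the member loci were near those of the whole list, and every member peak of 10-fold or more lay at Itgal or Itgb2. Peaks of that height were also found at 6 of 19 other integrin subunit genes. Fold enrichment is the authors' ratio of signal to background at the summit. The median of the 20 peaks was 5.82-fold (range 3.78 to 21.9), against 6.00-fold over the whole list. Of the 20, 10 were at or above the median of the list, and 50.0% of all peaks are. A peak of 10-fold or more was found 4 times among the 20 (11.1% of all peaks), 3 times in the Itgal locus and 1 time in the Itgb2 locus. By gene, 2 of 8 members held such a peak, against 10.1% of protein-coding genes and 18.7% of the 11796 genes with a locus summit. The highest peak was at or above the list's median in 5 of 8 members, against 35.8% of all genes and 66.4% of those with a locus summit. The median of the highest peak per gene was 6.71-fold over the members and 7.03-fold over all genes with a locus summit. Without Itgal, the count of peaks of 10-fold or more was 1 of 16. The peaks were narrow, with a median width of 177.5 bp against 227 bp for the list.

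**Figure D2:**
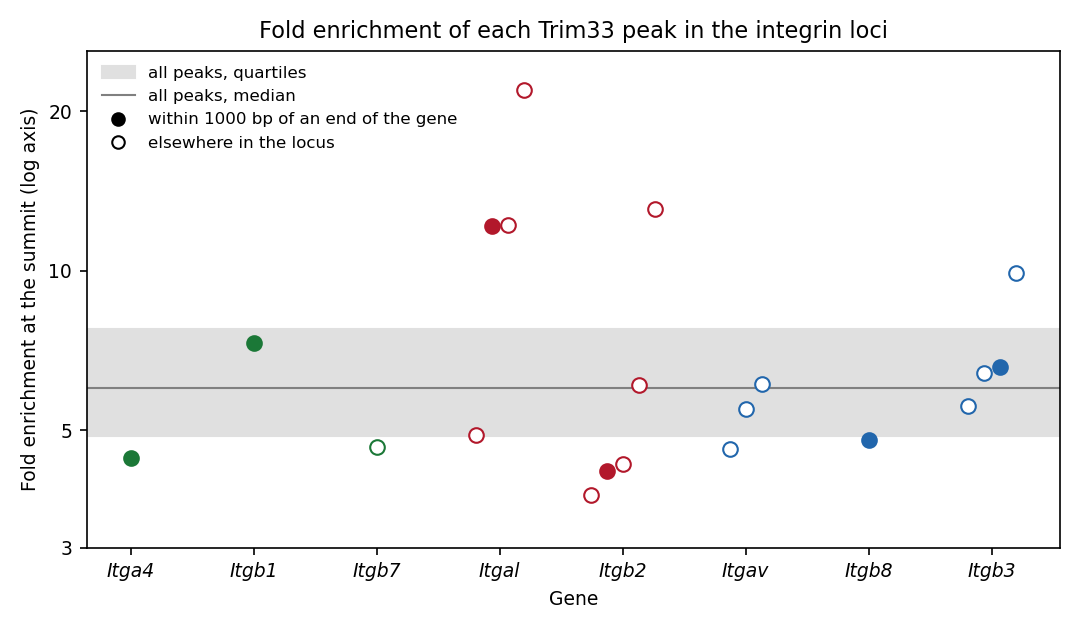
Fold enrichment of each of the 20 peaks by gene, on a log axis, with filled dots for summits within 1000 bp of an end of the gene, open dots for the others, and green, red and blue for alpha4, LFA-1 and alphaV genes. The grey band spans the quartiles of all peaks (4.87 and 7.76), and the 4 dots above 10 belong to Itgal and Itgb2.

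The LFA-1 genes carried 9 of the 20 summits. Itgal, the alphaL subunit on chromosome 7 (127296139 to 127335137), had 4 of them, and all lay at or below the lower end of the gene or just inside it. The highest peak of any member lay at 127293419 to 127294049, with its summit 2583 bp outside the gene. It had 21.9-fold enrichment and a −log10 q of 82.5, was 631 bp wide, and ranked 98 of all 27050 peaks by fold. A second peak outside the gene, at 127287950 to 127288372 and 7969 bp from it, had 12.2-fold enrichment and lay within the lncRNA gene Gm31897. The peak on the gene end, at 127296162 to 127296527, had its summit 121 bp inside the gene and 12.1-fold enrichment (rank 1417). The last, at 1600 bp inside the gene, was low, with 4.90-fold enrichment. The 4 summits lay 1479 to 5386 bp apart, and the nearest end of another protein-coding gene, Sephs2, was at least 14111 bp from each. The remaining body of Itgal, toward its upper end, held no summit. By its highest peak Itgal ranked 71 of the protein-coding genes.

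Itgb2, the beta2 subunit on chromosome 10 (77530329 to 77565708), had 5 summits, the most of the 8 members in this window. Only the one deep inside the gene was high. It lay at 77556694 to 77556972, 26488 bp from the lower end and 8891 bp from the upper end, with 13.1-fold enrichment, a −log10 q of 38.3 and rank 1060. The peak on the lower gene end, at 77530302 to 77530439, had its summit 31 bp inside the gene and only 4.19-fold enrichment, and a neighbour 1534 bp inside had 6.09-fold. Below the gene, peaks at 7824 and 9616 bp had 4.31-fold and 3.78-fold enrichment. These outer 2 were nearer to an end of Fam207a (5581 and 3789 bp) than to Itgb2, and the first lay inside the lncRNA gene Gm36040. When only summits inside a member or nearest to it were counted, Itgb2 had 3, against 4 each for Itgal and Itgb3. Both LFA-1 genes thus held a peak of over 10-fold but in different places: outside and on the gene end for Itgal, and well inside the gene for Itgb2.

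**Figure D3:**
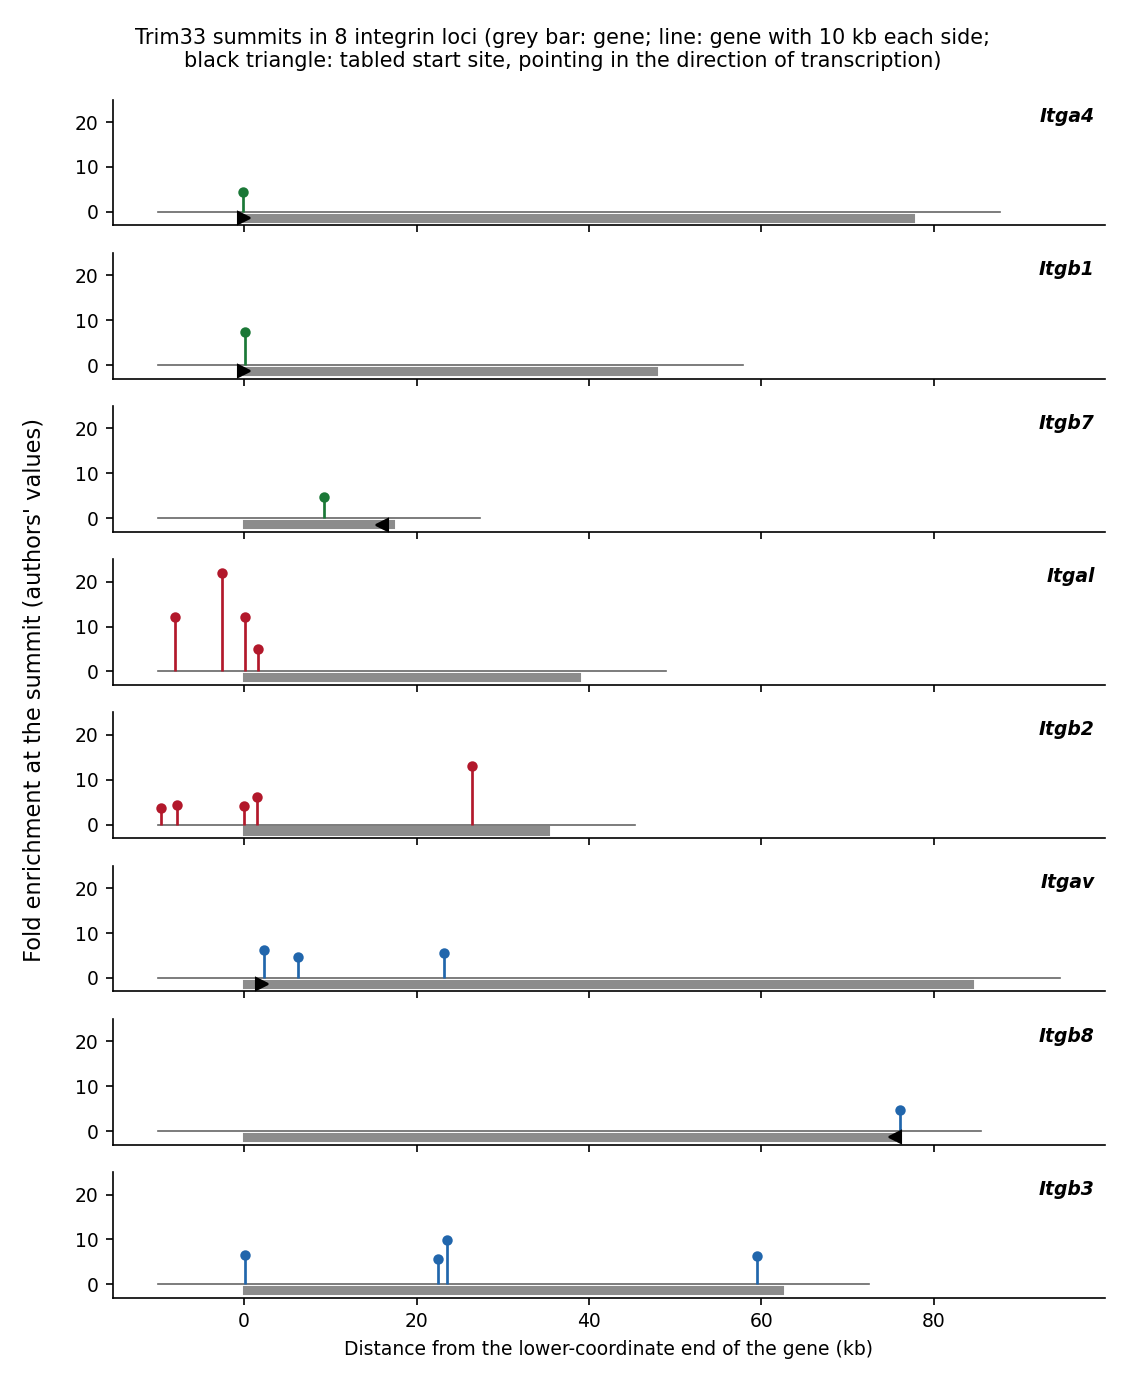
Position of every summit in the 8 loci, in kb from the lower-coordinate end of each gene, with the fold enrichment at the summit as height, a grey bar for the gene and a triangle at the tabled start site of 5 genes. The Itgal summits gather at its lower end, up to 21.9-fold, while the highest Itgb2 summit stands 26488 bp inside its gene.

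The alpha4 genes had 1 summit each, and none reached 10-fold. Itga4, the subunit shared by both alpha4 integrins, lies on chromosome 2 (79255426 to 79333114). Its single peak, the one shown above at 79255214 to 79255378, had 4.43-fold enrichment and a −log10 q of 3.93, the lowest −log10 q of the 20. Its summit lay 151 bp before the start site, and the 77689 bp of the gene body held no summit. Itgb1, the widely shared beta1 subunit on chromosome 8 (128685654 to 128733579), had a peak at 128685599 to 128685812 with 7.29-fold enrichment and rank 8087. Its summit lay 52 bp after the start site. Itgb7, the gut-homing beta7 subunit on chromosome 15 (102215994 to 102233405), had the only single summit that was away from a start site. It lay at 102225195 to 102225332, 6641 bp after the start site inside the gene, with 4.66-fold enrichment. The loci of Zfp740 and Rarg overlap this position too. Of the 3 peaks, the Itgb1 peak was above the list's median and the other 2 were below its lower quartile of 4.87-fold.

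The alphaV genes had 8 summits between them, from 4.60-fold to 9.88-fold. Itgav, on chromosome 2 (83722303 to 83806917), had 3 summits, all inside the gene. The first, at 83724270 to 83724693, was the highest with 6.12-fold enrichment. It lay 2279 bp from the lower gene end, so it was not counted at a gene end, but only 185 bp after the tabled start site, which stands inside the annotated gene. The others lay 4144 and 21061 bp after that site with 4.60-fold and 5.48-fold enrichment. Itgb8, which with alphaV binds latent TGF-beta, lies on chromosome 12 (119162803 to 119238276) and had 1 peak. It lay at 119238803 to 119238956, outside the gene and 580 bp before its start site, with 4.79-fold enrichment and rank 20793. The 75474 bp of the Itgb8 body held no summit.

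Itgb3, the beta3 subunit on chromosome 11 (104608000 to 104670476), had 4 summits, all inside the gene and spread along it. The peak at the lower end, at 104608015 to 104608157, had its summit 86 bp inside the gene and 6.57-fold enrichment. A pair 1053 bp apart followed at 22462 and 23515 bp from that end, with 5.54-fold and 9.88-fold enrichment, and the higher one (104631433 to 104631673, rank 3119) was the highest peak of the alphaV genes. The fourth lay 2927 bp before the upper end with 6.42-fold enrichment. Itgb3 thus had more and higher summits than Itgb8, which had 1 of 4.79-fold. Without replicate values the size of that gap has no error.

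Ordered by the highest peak, the members ran from Itgal (21.9-fold) and Itgb2 (13.1) through Itgb3 (9.88), Itgb1 (7.29) and Itgav (6.12) to Itgb8 (4.79), Itgb7 (4.66) and Itga4 (4.43). With no error for any value, the closeness of the last 3 and the gap above Itgb2 cannot be set against a spread. Summits per 100 kb of locus ran from 1.02 in Itga4 to 9.03 in Itgb2 and 6.78 in Itgal, with 3.33 over the 8 loci together and 1.84 over the loci of all protein-coding genes. The Itgb2 value includes the outer summits that lay nearer to Fam207a. At the edge of the window, the outermost summit counted was the Itgb2 summit 9616 bp from the gene (3.78-fold). The nearest summits not counted were one 10521 bp above Itgal with 10.96-fold enrichment, whose nearest gene end belongs to Zfp768, and one 11858 bp below Itgb7 with 5.69-fold, inside Zfp740 and Csad.

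The other integrin subunit genes had peaks as well. Of 19, 15 had a summit in the locus (78.9% against 53.9% of all genes) and 5 had one at a gene end (26.3% against 33.4%). A peak of 10-fold or more was found in 6 of the 19 (31.6% against 10.1% of all genes), where 2 of the 8 members had one. These shares over all genes are not matched for locus length. Among genes with loci in the length range of the members, 64.8% had a summit. Itga2, a collagen-binding alpha subunit, reached 15.0-fold, Itga3, a laminin-binding one, 14.6-fold, and Itga11 14.1-fold. The summit of that Itga3 peak lay 6231 bp outside the gene. Itga2b, the platelet alphaIIb subunit, and Itga5 had no summit. Among beta genes the epithelial Itgb6 reached 8.76-fold, Itgb5 4.90-fold and Itgb4 4.36-fold, and Itgb2l had no summit. The summit of that Itgb5 peak lay 1723 bp outside the gene. By highest peak, Itgal ranked 1 and Itgb2 ranked 5 of all 27 integrin subunit genes. Itgae, the alphaE partner of beta7, was picked for naming after its values were seen. It held 5 summits up to 12.9-fold, while Itgb7 itself had 1 of 4.66-fold. Of 6 integrin genes that mark other cells (Itgam, Itgax, Itgad, Itga2b, Itgb4 and Itgb6), 5 had a summit (83.3% against 53.9% of all genes) and 1, Itgam with 12.4-fold, had a peak of 10-fold or more. Whether DNA from such cells has a part in these peaks was not tested.

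**Figure D4:**
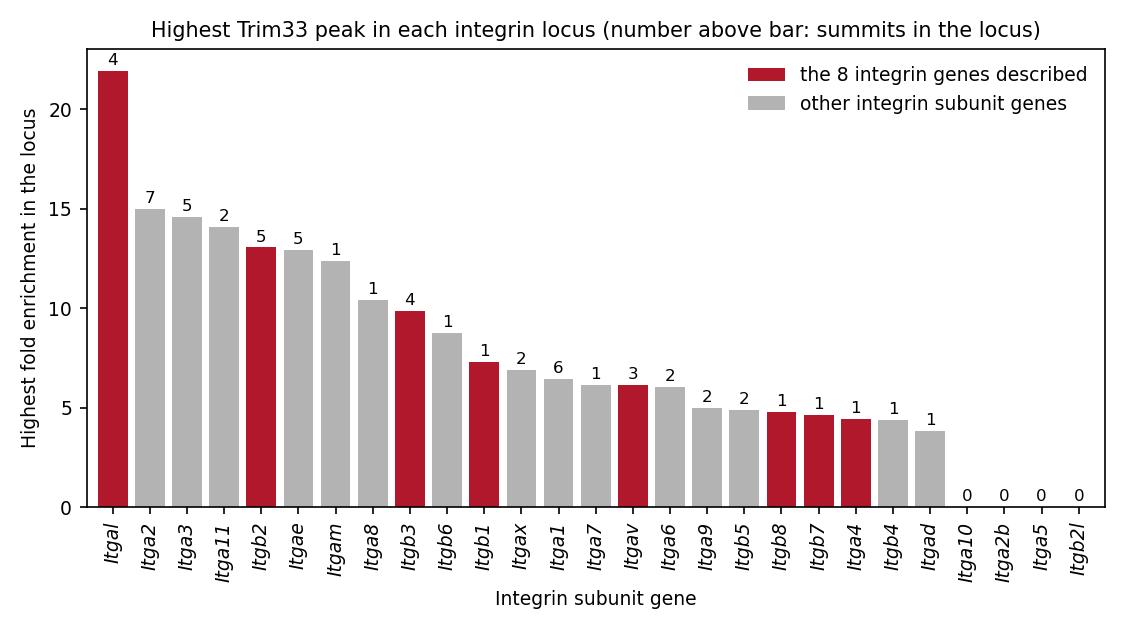
Highest fold enrichment in the locus of each of 27 integrin subunit genes, red for the 8 members and grey for the others, with the number of summits above each bar (a bar of 0 means no summit). Itgal stands first at 21.9, Itgb2 has rank 5 at 13.1, and 4 of the grey genes have no summit.

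Genes that work with these integrins were taken from lists by function. The share over all genes given beside each list is not matched for locus length. Of 21 genes that switch integrins on or off, 18 had a locus summit (85.7% against 53.9% of all genes) and 14 a summit at a gene end (66.7% against 33.4%). The highest peaks were those of Rasa3, a brake on the small GTPase Rap1 (15.4-fold), Rapgef1, an exchange factor for Rap1 (13.03-fold), and Apbb1ip, the Rap1 effector RIAM (12.9-fold with 11 summits). The summit of the Rasa3 peak lay 9712 bp outside the gene, near the edge of the window. The kindlin genes Fermt1 and Fermt2 had no summit. Fermt3, the kindlin of blood cells, was also named after its value was seen and had 1 summit of 7.39-fold. Of 18 genes of integrin signalling and the adhesion complex, 17 had a summit in the locus (94.4% against 53.9% of all genes) and 11 at a gene end (61.1% against 33.4%). They included the kinase genes Ptk2 (12.6-fold) and Src (11.6-fold) and the adaptor gene Nedd9 (11.8-fold), and Parvb had none.

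Of 10 ligand genes of these integrins, 5 had a locus summit, close to the 53.9% over all genes, and 2 a gene-end summit, against 33.4%. Vtn, which encodes vitronectin, reached 6.77-fold with a summit 9882 bp from the nearer end of the gene. Icam1, Icam4 and Icam5 are neighbours and share 1 peak of 5.73-fold. By this peak alone all of them count among the 5 genes with a locus summit. The 2 gene-end summits counted, at Icam1 and Icam4, are also this same peak. Vcam1 and Madcam1, which encode the partners of alpha4beta1 and alpha4beta7, had no summit. Of 10 genes of the latent TGF-beta complex that alphaV integrins act on, 9 had a locus summit and 2 a gene-end summit, so the first share was above that over all genes (53.9%) and the second below it (33.4%). Nrros, which anchors latent TGF-beta, reached 9.34-fold, the protease gene Furin 8.85-fold and the binding protein gene Ltbp4 8.14-fold, and Tgfb2 had none. The summit of the Nrros peak lay 2043 bp outside the gene. Of 10 lymphocyte homing genes, 9 had a locus summit, against 53.9% of all genes, and 4 a gene-end summit, near the 33.4% over all genes. The gut-homing chemokine receptor Ccr9 reached 12.6-fold, Ccr7 9.46-fold and Ccr6 8.86-fold, and Cd44 had none. The summits of the Ccr7 and Ccr6 peaks lay 5938 and 1287 bp outside these genes.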

How the data were processed

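The peak list holds 27050 regions on 21 chromosomes, called on merged replicates per the peak names in it, and is the only file used. The submitters' processing notes name MACS2 2.1.1.20160309, Bowtie 1.2.1.1, Trim Galore 0.3.7 and the build mm10. Which settings, threshold and control were used is not given in the sources used. The authors' fold enrichment is a ratio at the summit, and the deposited list also gives −log10 p and −log10 q there. The score column in the deposited list repeats the −log10 q (times 10, cut to a whole number, in 100% of peaks) and was left out. Library depth is unknown. Calling on merged reads can report a site carried by 1 library.

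Summits were counted from 1 and placed with Python 3.11.15, numpy 2.4.6 and pandas 2.3.3 against a RefSeq table of GRCm38.p6. The table gives no exons, so introns and exons were not told apart, and strand came from tabled start sites where present. Window counts were tested on simulated summits at 300 genes. All 8 members, each list's 3 highest genes and up to 2 without a summit are named. The members and lists were chosen with earlier results of these data known. Alternatives were other windows, stricter peak sets and overlap in place of summits.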

Additional observations from a re-analysis of the deposited data

How the results depend on the processing

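Of 31 alternative values, 18 stayed within 1.5 times the reported one and 13 did not. With 50 kb on each side the 8 loci held 38 summits in place of 20, and 71.5% of all protein-coding genes had a summit. Stricter sets hold fewer peaks by construction. With peaks at or above the median fold, the loci held 10 summits in 5 members, 3 members had a gene-end summit and 2 a start-site summit. With peaks at or above the median −log10 q these were 8 summits, 4 members, 3 and 1. With peaks of 10-fold or more they were 4 summits, 2 members, 1 and 0. At the median fold 35.8% of all protein-coding genes had a locus summit and 17.2% a gene-end summit, at the median −log10 q 35.8% and 17.6%, and at 10-fold 10.1% and 3.42%. For start-site summits the share over all genes was not computed with these sets. Those counts therefore cannot be read as high or low. The median fold was 6.11 to 6.12 under its 3 alternatives, against 5.82. Gene bodies alone held 14 summits in 6 members, and 33.0% of all protein-coding genes had a summit in the body. No paired analysis was possible because replicates were merged before peaks were called, and none could be left out.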

Other observations

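Beyond the 10 kb limit, 18 further summits lay within 50 kb of the members. Below Itgav, 3 summits gathered 21430 to 26790 bp from the gene, with 6.71-fold, 7.92-fold and 6.75-fold enrichment. The lowest of these is higher than every Itgav peak inside the locus (up to 6.12-fold). Itgb1, with 1 summit in its locus, had 2 more at 37797 bp below and 30673 bp above the gene, with 7.48-fold and 9.60-fold enrichment, both higher than its start-site peak of 7.29-fold. Their nearest other protein-coding gene ends belong to Nrp1 and Ccdc7a, 142381 and 215767 bp away and so farther than Itgb1. No summit lay between 10 and 50 kb from Itga4, Itgb8 or Itgb3. Which gene such summits serve cannot be read from a peak list.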
